A study of Drosophila melanogaster with 9 samples.

Results

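Aminoacyl-tRNA synthetase genes were followed through an RNA immunoprecipitation from Drosophila melanogaster ovaries. A gene was taken when its symbol was made of 1 or 2 three-letter amino acid names followed by RS, and the ending -m was read as the mitochondrial form. The annotation held 33 such symbols, and 31 of the 17024 gene IDs in the count tables belonged to them: 17 without -m, called cytoplasmic here, and 14 with it. LeuRS and PheRS-m, whose current IDs were not matched, were not analysed here. The symbol rule used no measured value, although it was set with earlier results of these data known. All 31 genes passed the filter on low counts.

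All 9 libraries were made from ovaries of the same genotype, aramis::GFP::FLAG, dissected 1 to 3 days after eclosion, with 3 libraries in each of 3 groups. IP libraries held poly(A) RNA recovered with an antibody against FLAG, IgG libraries held RNA recovered with control mouse IgG, and Input libraries held RNA of 10% of the lysate, set aside beforehand. In the design text the tagged protein is Larp, but titles and genotype give aramis, and these sample labels were followed. No label gives the driver or insertion of the tagged gene, or says that replicates were separate dissections, so p-values measure only the spread between these libraries.

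Aminoacyl-tRNA synthetases join each amino acid to its tRNA, which then brings it to the ribosome. Flies translate nuclear messages in the cytoplasm and a small set of mitochondrial messages inside mitochondria, and many amino acids have a separate nuclear gene for the enzyme of each compartment. A symbol without -m does not prove that an enzyme stays in the cytoplasm: the human genes for GlyRS and LysRS each supply both compartments, and neither enzyme had an -m symbol among these genes. HisRS and ThrRS had no -m symbol either, and whether they serve both compartments was not examined. Ovaries, which load the egg with ribosomes and mitochondria, use both sets.

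Total counts ran from 30533376 to 47080956 per library. Genes with at least 1 count numbered 9700 to 9985 in IP, 7805 to 7929 in IgG and 10966 to 11205 in Input, and 1 feature with the malformed ID FBgn000003 took 0.684% to 1.04% of the counts in IP, 5.89% to 14.6% in IgG and 0.0113% to 0.0612% in Input. All 6 germline markers were detected in every library, and their summed level was 3280 to 3840 CPM (counts scaled to library size with TMM factors) in IP, 3230 to 3490 in IgG and 3500 to 3720 in Input. All 7 follicle cell markers were detected too, at 21500 to 22900 CPM in IP, 24000 to 28100 in IgG and 15000 to 15700 in Input. The 9 muscle markers found in the files summed to 160 to 1080 CPM in IP, 627 to 3360 in IgG and 232 to 442 in Input. The 5 fat body markers summed to 32.5 to 73.4 CPM in IP, 18.8 to 109 in IgG and 10.6 to 24.5 in Input, and the 3 hemocyte markers stayed at or below 7.33 CPM. The part of these markers in the results was not tested, and in bulk libraries fewer cells of a type and less RNA per cell cannot be told apart.

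Start windows are shown for the synthetase genes that were called against Input in both pulldowns, apart from AspRS, because Larp, the protein of the design text, is known for binding messages that open with a pyrimidine run. Each window is the sense strand of the Release 6 fly genome (dm6), with 20 bases before the annotated start of the canonical transcript and 10 from it on, and capitals mark the motif TCTTT, which many fly ribosomal protein genes carry at their start.
TyrRS (chr3L:16419293-16419322, minus strand): cgcatgcatttgcgttcttccTCTTTcact
ThrRS (chr2L:12103731-12103760, plus strand): tgccacctggtaacactgtgcccctttttg
GlyRS (chr3L:15095122-15095151, plus strand): aagacagtgctgcaagccggccgactaaga
HisRS (chrX:18515408-18515437, plus strand): acattgaccaccgcgtgcgaattttttttt
LeuRS-m (chr3L:4825833-4825862, plus strand): tgagcgatgtggcaactcgatgcagagaaa

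The sense motif stood in 1 of 17 cytoplasmic windows (5.88%), that of TyrRS, and in 0 of 14 mitochondrial windows. Among all 8556 tested genes with a window it stood in 314 (3.67%), and among 76 cytoplasmic ribosomal protein genes in 34 (44.7%). Counted on either strand it stood in 1 of 17 cytoplasmic windows, 1 of 14 mitochondrial windows and 6.23% of all windows. A match is a description of these letters in these windows and not a binding site.

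In the Input libraries, the cytoplasmic synthetase messages were more abundant per length than the mitochondrial ones, with AspRS and AspRS-m as the exceptions. Levels per length are CPM divided by the kilobases of exon. In Input, the 16 cytoplasmic genes other than AspRS had means of 38.2 CPM per kb or more, and the 13 mitochondrial genes other than AspRS-m had means of 21.6 CPM per kb or less. The level of AspRS was divided by all its 2266 exonic bases, of which 1448 also belong to another gene. Whether reads of shared bases were counted is not known, so its level per length may be too low and its place as an exception is uncertain. The median gene of the cytoplasmic class stood at 65.2 ± 4.57 CPM per kb in IP, 62.3 ± 2.94 in IgG and 71.6 ± 1.88 in Input (SD, n = 3 each). The median mitochondrial gene stood at 8.19 ± 0.184 CPM per kb in IP, 8.28 ± 0.683 in IgG and 10.9 ± 0.386 in Input. Both pulldowns kept the order of the classes. Per library, the cytoplasmic median was 62.2, 62.8 and 70.4 CPM per kb in IP and 72.9, 72.4 and 69.4 in Input, so these groups overlapped.

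ThrRS, which charges threonine, and AsnRS, which charges asparagine, were the most abundant members in Input, with LysRS and IleRS close behind. ThrRS averaged 142 ± 13.5 CPM per kb in IP, 146 ± 12.3 in IgG and 110 ± 4.19 in Input. AsnRS had 301, 312 and 341 CPM in IP, 255, 307 and 350 CPM in IgG, and 257, 261 and 254 CPM in Input, which is 108 ± 1.54 CPM per kb in Input. LysRS averaged 104 ± 2.04 and IleRS 101 ± 3.66 CPM per kb in Input, so that ThrRS and AsnRS, and likewise LysRS and IleRS, differed by less than the larger of their SDs. At the low end were MetRS-m, which charges mitochondrial methionine tRNA, and GluRS-m, which charges mitochondrial glutamate tRNA. MetRS-m had 30.7, 33.7 and 34.8 CPM in IP, 19.7, 37.6 and 35.5 CPM in IgG, and 30.4, 29.5 and 26.9 CPM in Input, which is 6.71 ± 0.423 CPM per kb in Input. GluRS-m averaged 3.09 ± 0.937 CPM per kb in IP, 2.43 ± 3.99 in IgG and 6.09 ± 0.55 in Input.

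**Figure D1:**
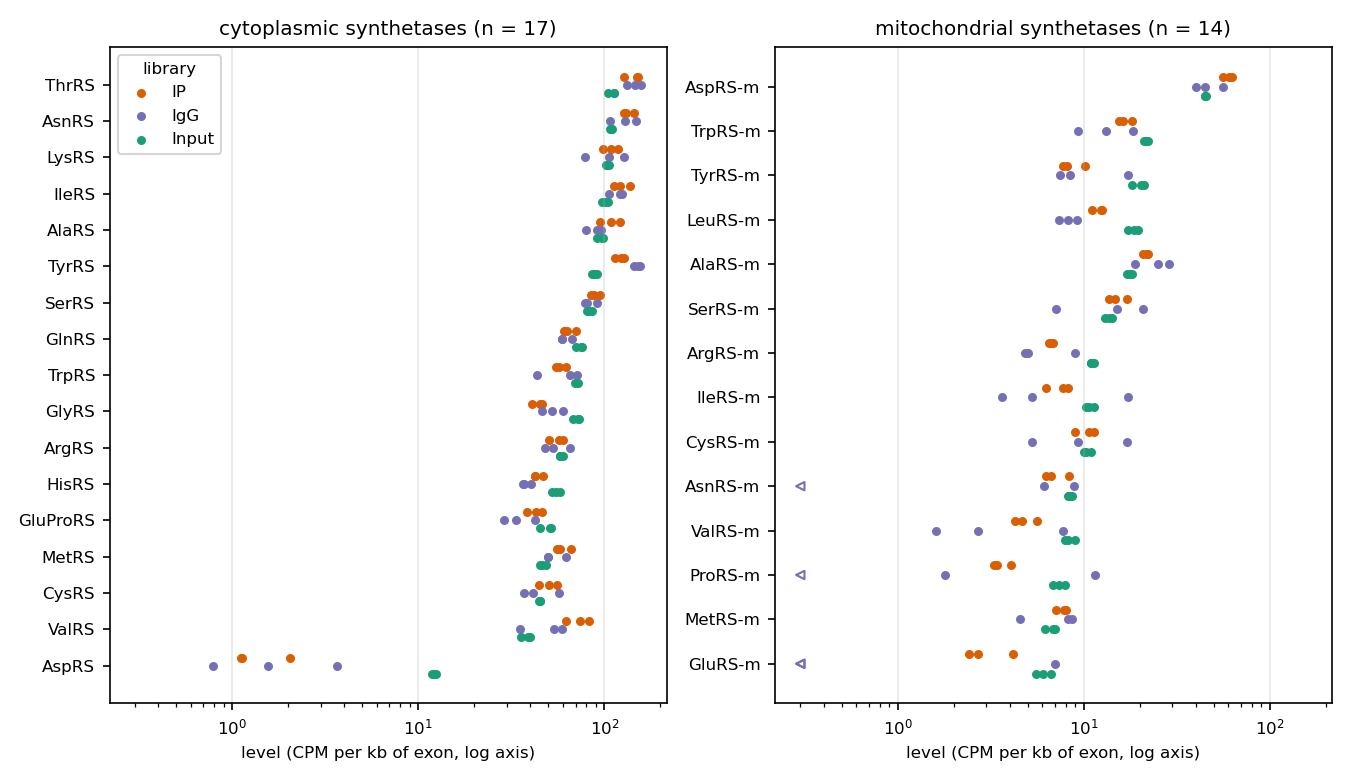
Level of each synthetase gene in each library, in CPM per kb of exon on a log axis, with cytoplasmic genes on the left and mitochondrial genes on the right, ordered by their mean in Input. Each point is 1 library (orange IP, purple IgG, green Input), and open triangles mark libraries under 0.3 CPM per kb; the purple points of the mitochondrial genes spread most widely, and AspRS is the cytoplasmic gene at the far left.

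Summed over their class, the cytoplasmic genes took 3356, 3643 and 3869 CPM in IP, 3145, 3552 and 3524 CPM in IgG, and 3364, 3331 and 3184 CPM in Input. The mitochondrial genes took 582.9, 616.5 and 590.4 CPM in IP, 530.9, 482.8 and 564.2 CPM in IgG, and 615.4, 602.9 and 596.2 CPM in Input. The IP and Input ranges overlapped in both classes, although IP replicate 1 alone held the overlap in the cytoplasmic class. A large part of the mitochondrial sum was AspRS-m: without it the other 13 genes took 331.5 ± 8.45 CPM in IP, 318.3 ± 42.8 in IgG and 406.0 ± 10.1 in Input, and both pulldowns then lay below Input in every library.

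The IgG libraries measured the mitochondrial genes less evenly than the other groups did. The SD over replicates was 11.7% of the mean in IP, 48.5% in IgG and 4.97% in Input for the median mitochondrial gene, against 8.92% in IP, 13.7% in IgG and 3.64% in Input for the median cytoplasmic gene. The mitochondrial genes were also the less abundant class. AspRS, by its counts the least abundant cytoplasmic gene in Input, was uneven in IgG too (4.52 ± 3.34 CPM, SD). AspRS-m, the most abundant mitochondrial gene, was less so (208 ± 36.3). The part of level in this spread was not tested. GluRS-m was counted 157, 302 and 204 times in IP, 411, 12 and 0 times in IgG, and 490, 373 and 486 times in Input. ProRS-m, the mitochondrial prolyl enzyme, was counted 234, 212 and 233 times in IP, 597, 73 and 3 times in IgG, and 484, 408 and 570 times in Input. In both genes IgG replicate 1 held most counts of its group. AsnRS-m, the mitochondrial asparaginyl enzyme, was counted 467, 423 and 413 times in IP, 453, 11 and 387 times in IgG, and 533, 479 and 604 times in Input, and here IgG replicate 2 was the low library. The count of 0 allows a GluRS-m level of up to 0.0703 CPM in IgG replicate 3, for counting error only.

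IP over Input compares the messages recovered with the FLAG antibody with those of the lysate. By itself it does not separate messages held with the tagged protein from those that any pulldown recovers. Of the 17 cytoplasmic genes, 6 were higher in IP (ValRS, TyrRS, ThrRS, MetRS, AsnRS and IleRS), 6 were lower (AspRS, GlyRS, HisRS, TrpRS, GluProRS and GlnRS) and 5 were not called. Of the 14 mitochondrial genes, 2 were higher (AspRS-m and AlaRS-m), 8 were lower (TyrRS-m, ProRS-m, GluRS-m, ValRS-m, ArgRS-m, LeuRS-m, IleRS-m and TrpRS-m) and 4 were not called. A call is an adjusted p under 0.05 in edgeR's quasi-likelihood test with Benjamini-Hochberg adjustment over all 8789 genes tested, of which 59.2% were called in this comparison, 28.5% higher and 30.8% lower. The share called was 70.6% in the cytoplasmic and 71.4% in the mitochondrial class, and most changes were small: 3 of the 31 genes differed by 2-fold or more. The median log2 fold change was 0.09 over the cytoplasmic genes, -0.47 over the mitochondrial genes and 0.01 over all genes tested.

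Libraries of the groups did not overlap for 22 of the 31 genes, with 9 above and 13 below Input, while 66.7% of all genes tested did not overlap, 32.3% above and 34.4% below. MetRS-m was above Input in every IP library without being called, and GluProRS was called lower although its groups overlapped. Taken by replicate number, the median difference was -0.06, 0.15 and 0.09 log2 units over the cytoplasmic genes and -0.55, -0.36 and -0.46 over the mitochondrial genes in replicates 1, 2 and 3.

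Among the cytoplasmic genes that rose, ValRS, which charges valine, moved most. ValRS had 212, 252 and 280 CPM in IP, 120, 201 and 182 CPM in IgG, and 132, 136 and 122 CPM in Input. Every IP library was above every Input library, and above every IgG library too. The log2 fold change of ValRS in IP over Input was 0.93 ± 0.09 (SE; edgeR, adjusted p = 1.98e-05), a 1.9-fold difference. TyrRS, which charges tyrosine, had 225, 201 and 218 CPM in IP, 277, 267 and 255 CPM in IgG, and 161, 155 and 151 CPM in Input. TyrRS thus stood above Input in both pulldowns, and higher in IgG than in IP without overlap. Its log2 fold change in IP over Input was 0.46 ± 0.06 (edgeR, adjusted p = 6.8e-05).

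ThrRS had 367, 437 and 433 CPM in IP, 456, 423 and 385 CPM in IgG, and 324, 326 and 304 CPM in Input, and its log2 fold change in IP over Input was 0.37 ± 0.07 (edgeR, adjusted p = 0.00155). The IP and IgG libraries of ThrRS interleaved. IleRS, which charges isoleucine, had 437, 473 and 540 CPM in IP, 413, 473 and 489 CPM in IgG, and 395, 407 and 378 CPM in Input, with a log2 fold change of 0.29 ± 0.08 in IP over Input (edgeR, adjusted p = 0.00802). This call ended with the centred exon length correction, at 0.17 (edgeR, adjusted p = 0.134). Both pulldowns lay above Input in every library for IleRS. MetRS and AsnRS rose by 0.35 ± 0.07 and 0.30 ± 0.06 on the log2 scale.

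AspRS, the cytoplasmic aspartyl enzyme, differed from Input far more than any other member. AspRS had 2.53, 4.62 and 2.55 CPM in IP, 3.52, 1.79 and 8.25 CPM in IgG, and 28.1, 27.6 and 26.7 CPM in Input. Both pulldowns were far below Input, with no overlap, and overlapped each other. The IP over Input log2 fold change was -3.09 ± 0.22 (edgeR, adjusted p = 2.11e-06), 8.51-fold lower in IP. AspRS lies on chromosome 2R, 12877004 to 12883168, on the plus strand, and 1448 of its 2266 exonic bases also belong to asRNA:CR45141 on the opposite strand. Another 127 belong to Nmda1 on the opposite strand, which had 2664 to 3540 counts in IP, 2106 to 2930 in IgG and 3867 to 4421 in Input, and 154 belong to asRNA:CR43468 on the same strand, which had at most 14. The libraries were made with a directional kit, but the strand setting of the counting is not given in the sources used here. Reads of AspRS and of these overlapping genes therefore cannot be told apart with certainty, and asRNA:CR45141 itself had 0 counts in every library but Input replicate 1, which had 5.

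GlyRS, which charges glycine, and HisRS, which charges histidine, were lower in both pulldowns as well. GlyRS had 103, 115 and 117 CPM in IP, 152, 117 and 133 CPM in IgG, and 185, 184 and 173 CPM in Input, with a log2 fold change of -0.70 ± 0.06 in IP over Input (edgeR, adjusted p = 8.76e-06). HisRS had 121, 134 and 122 CPM in IP, 115, 106 and 104 CPM in IgG, and 165, 158 and 150 CPM in Input, with a log2 fold change of -0.33 ± 0.06 (edgeR, adjusted p = 0.00106). Neither pulldown reached the Input range for either gene. HisRS shares 255 of its 2862 exonic bases with Bx on the same strand. TrpRS, GluProRS and GlnRS were lower by smaller amounts, at -0.30 ± 0.06, -0.22 ± 0.08 and -0.19 ± 0.06 on the log2 scale. AsnRS, TrpRS, GlnRS and GluProRS were not called when all 9 libraries were fitted together (edgeR, adjusted p = 0.0537, 0.218, 0.143 and 0.292). GluProRS is a fused enzyme that charges both glutamate and proline. The calls of GlnRS and GluProRS did not hold when single libraries were left out: GlnRS was not called without IP replicate 1, IP replicate 2, Input replicate 1 or Input replicate 3, and GluProRS was not called without IP replicate 1, IP replicate 2, Input replicate 1 or Input replicate 2.

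**Figure D2:**
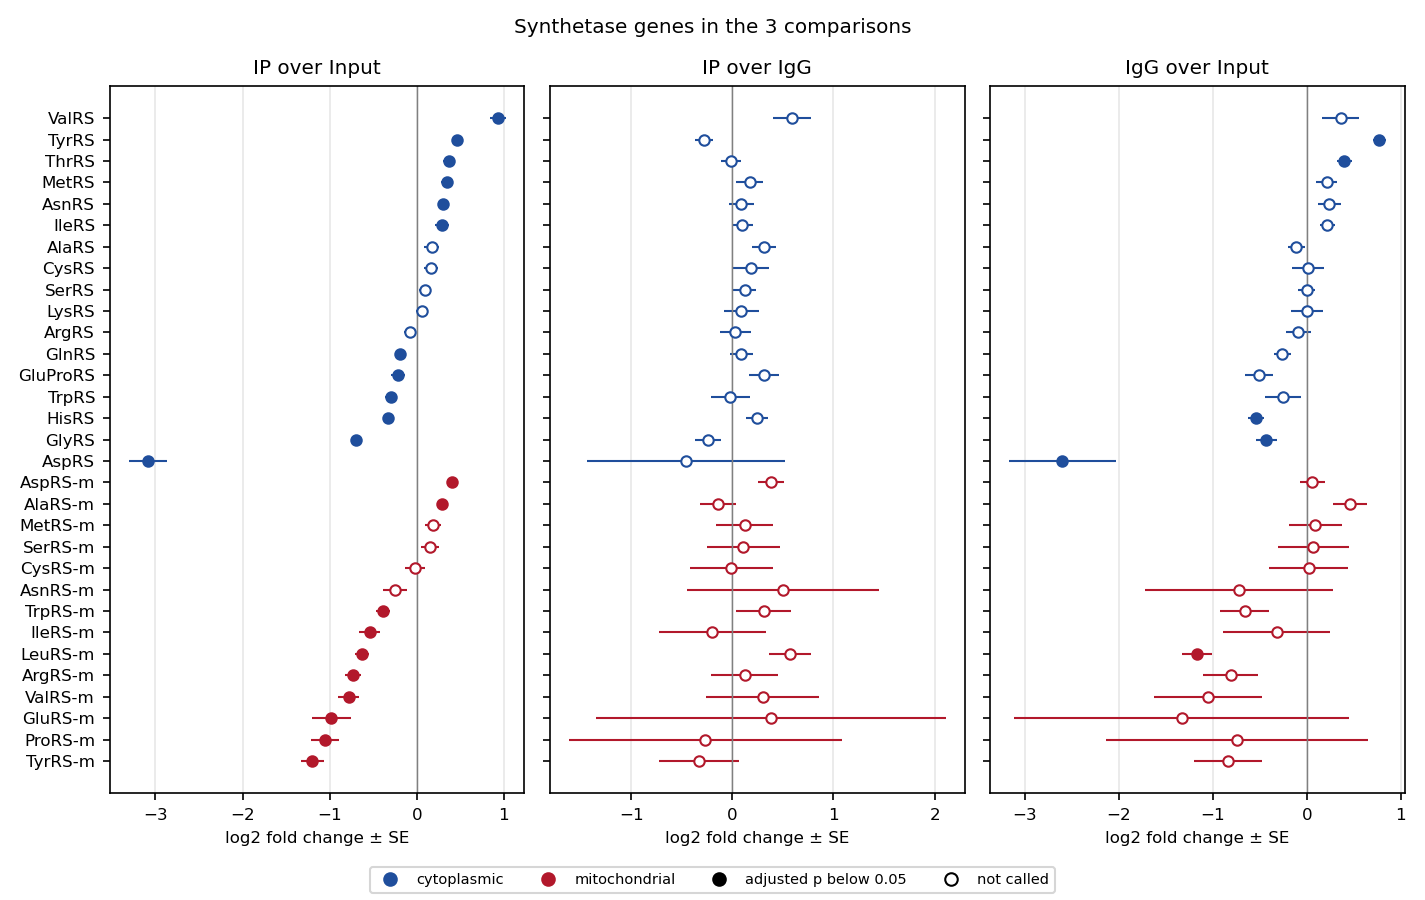
Log2 fold change of each synthetase gene (x axis, with its SE) in IP over Input, IP over IgG and IgG over Input, with cytoplasmic genes in blue above mitochondrial genes in red and the same gene order in each panel. Filled points have an adjusted p under 0.05 (edgeR): 22 of 31 in IP over Input, 0 in IP over IgG and 6 in IgG over Input.

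The mitochondrial genes that fell were led by TyrRS-m, ProRS-m and GluRS-m. TyrRS-m, the mitochondrial tyrosyl enzyme, had 11.9, 15.6 and 12.5 CPM in IP, 13.0, 11.5 and 26.6 CPM in IgG, and 32.6, 28.0 and 31.3 CPM in Input. All pulldown libraries were below Input, IgG replicate 3 least so. The IP over Input log2 fold change of TyrRS-m was -1.20 ± 0.13 (edgeR, adjusted p = 2.54e-05). ProRS-m had 6.16, 4.97 and 5.22 CPM in IP, 17.4, 2.73 and 0.0703 CPM in IgG, and 11.2, 10.3 and 12.1 CPM in Input, a log2 fold change of -1.05 ± 0.16 in IP over Input (edgeR, adjusted p = 0.000264). GluRS-m had 4.13, 7.08 and 4.57 CPM in IP, 12.0, 0.448 and 0 CPM in IgG, and 11.3, 9.46 and 10.3 CPM in Input, a log2 fold change of -0.98 ± 0.22 (edgeR, adjusted p = 0.00344). For both genes every IP library lay below Input, and the IgG libraries lay on both sides of it. Fitted with all 9 libraries, so that the IgG libraries shared in the spread, TyrRS-m, ArgRS-m and LeuRS-m remained called lower, while ProRS-m, GluRS-m, ValRS-m, IleRS-m and TrpRS-m were not (edgeR, adjusted p = 0.586, 0.698, 0.277, 0.476 and 0.243), nor was AlaRS-m called higher (0.178).

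ValRS-m and IleRS-m fell in IP while the cytoplasmic enzymes for the same amino acids rose. ValRS-m had 15.3, 18.3 and 13.9 CPM in IP, 8.77, 5.19 and 25.3 CPM in IgG, and 29.1, 26.8 and 25.7 CPM in Input, with a log2 fold change of -0.78 ± 0.12 in IP over Input (edgeR, adjusted p = 0.00034). IleRS-m had 18.2, 22.6 and 23.8 CPM in IP, 50.1, 10.5 and 15.3 CPM in IgG, and 29.8, 33.2 and 31.2 CPM in Input, with a log2 fold change of -0.54 ± 0.12 (edgeR, adjusted p = 0.00244). No IP library reached Input for either gene. ArgRS-m, LeuRS-m and TrpRS-m fell by 0.73, 0.63 and 0.39 on the log2 scale in IP over Input. ArgRS-m shares 325 of its 2748 exonic bases with mRpS9 on the opposite strand.

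AspRS-m and AlaRS-m, the mitochondrial aspartyl and alanyl enzymes, were the mitochondrial genes that rose. AspRS-m had 248, 279 and 269 CPM in IP, 248, 177 and 198 CPM in IgG, and 198, 201 and 198 CPM in Input, with a log2 fold change of 0.41 ± 0.05 in IP over Input (edgeR, adjusted p = 0.00011). AlaRS-m had 71.3, 67.7 and 71.0 CPM in IP, 60.7, 93.5 and 81.5 CPM in IgG, and 58.6, 57.5 and 54.9 CPM in Input, with a log2 fold change of 0.29 ± 0.06 (edgeR, adjusted p = 0.00216). The IP libraries stood above Input in both genes, whereas the IgG libraries of AspRS-m overlapped Input and those of AlaRS-m did not. The mitochondrial genes not called were MetRS-m, SerRS-m, CysRS-m and AsnRS-m, with log2 fold changes of -0.25 to 0.19.

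IP over IgG sets the FLAG pulldown against the control pulldown. None of the 31 synthetase genes was called by edgeR (0 of 17 cytoplasmic, 0 of 14 mitochondrial), where 7.97% of the 8784 genes tested were called, 4.77% higher and 3.2% lower. At an unadjusted p under 0.05 there were 5 of 31, 3 cytoplasmic (ValRS, TyrRS and AlaRS) and 2 mitochondrial (AspRS-m and LeuRS-m), beside 27.3% of all genes tested. DESeq2 called 2 cytoplasmic genes, ValRS higher and TyrRS lower, and 0 mitochondrial genes. Of all genes called, 59.9% were higher in IP, a share that was 86.2% with library totals in place of TMM factors. The median log2 fold change was 0.09 over the cytoplasmic genes, 0.12 over the mitochondrial genes and 0.03 over all genes tested.

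The largest difference was that of ValRS, at 0.59 ± 0.19 on the log2 scale (edgeR, adjusted p = 0.0927), with IP above IgG in every library. LeuRS-m, the mitochondrial leucyl enzyme, had 37.5, 37.8 and 33.6 CPM in IP and 22.3, 24.9 and 27.7 CPM in IgG, against 59.4, 52.5 and 56.2 CPM in Input. Its IP libraries lay between the other groups, and its log2 fold change in IP over IgG was 0.57 ± 0.21 (edgeR, adjusted p = 0.12). TyrRS was at -0.28 ± 0.09 (edgeR, adjusted p = 0.085), lower in IP than in IgG in every library. AspRS-m was at 0.38 ± 0.13 (edgeR, adjusted p = 0.101), and its lowest IP library barely passed its highest IgG library. IP and IgG libraries did not overlap for 6 of the 31 genes, 4 above and 2 below, beside 33.1% of all genes tested (20.2% above, 13.0% below). The median standard error was 0.13 in the cytoplasmic class, 0.38 in the mitochondrial class and 0.26 over all genes tested. With the exon length correction, which moved the median of all genes to -0.34, AspRS-m was at -0.12.

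With the replicate number as a block, ValRS (0.62, edgeR adjusted p = 7.06e-05), AlaRS (0.30, adjusted p = 0.0466) and AspRS-m (0.39, adjusted p = 0.0168) were called higher in IP than in IgG. Whether the libraries of these groups are paired was not settled, and a call in that fit depends on taking the shared number as a pairing. Without IgG replicate 1, AspRS-m was called at 0.49 (edgeR, adjusted p = 0.0332).

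IgG over Input shows what a pulldown without the FLAG antibody did to the same messages. Of the cytoplasmic genes, 2 were higher in IgG (TyrRS and ThrRS), 3 were lower (AspRS, HisRS and GlyRS) and 12 were not called. Of the mitochondrial genes, LeuRS-m was lower and 13 were not called. Over all genes tested 26.9% were called, 10.3% higher and 16.6% lower, and the share of members was 19.4%. Of all genes called, 38.4% were higher, a share that was 25.8% with library totals. The median log2 fold change was 0.00 over the cytoplasmic genes, -0.69 over the mitochondrial genes and -0.01 over all genes tested. The median SE was 0.11, 0.37 and 0.24 in the same order.

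The 6 genes called in IgG over Input were all called in IP over Input, in the same direction, and these comparisons share the Input libraries. AspRS was at -3.09 ± 0.22 in IP over Input and -2.60 ± 0.57 in IgG over Input (edgeR, adjusted p = 0.018 in the second). TyrRS was at 0.46 ± 0.06 and 0.77 ± 0.07 (adjusted p = 0.0019 in the second, edgeR). For ThrRS the values were 0.37 ± 0.07 and 0.40 ± 0.08 (edgeR, adjusted p = 0.0149 in the second). LeuRS-m was at -0.63 ± 0.08 and -1.17 ± 0.16 (edgeR, adjusted p = 0.00511 in the second). GlyRS was at -0.70 ± 0.06 and -0.43 ± 0.11, and HisRS at -0.33 ± 0.06 and -0.54 ± 0.09 (edgeR, adjusted p = 0.0312 and 0.00949 in the second). With a loess correction for exon length, which moved the median of all genes to 0.37, GlyRS was at 0.01 in IgG over Input and was not called. When an Input library was left out, 3 to 4 of these 6 calls were lost: TyrRS and LeuRS-m remained called without any of the 3 Input libraries, and HisRS without Input replicate 3. GlyRS was also not called without IgG replicate 3, and ThrRS was not called with library totals.

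In IgG over Input, 15 of the 31 genes did not overlap, 5 above and 10 below Input, beside 47.9% of all genes tested (18.8% above, 29.1% below). The widest SEs were those of GluRS-m (-1.33 ± 1.78), ProRS-m (-0.74 ± 1.39) and AsnRS-m (-0.72 ± 1.00), the genes with a library near 0 in IgG. Single IgG libraries decided several calls. Without IgG replicate 3, ArgRS-m, TrpRS-m, TyrRS-m and ValRS-m were also called lower, at -1.17, -0.95, -1.33 and -1.97, and so were GlnRS and GluProRS, at -0.32 and -0.67. Without IgG replicate 1, AsnRS, IleRS, ValRS and AlaRS-m were called higher, at 0.35, 0.29, 0.56 and 0.62, and IleRS-m and GluRS-m lower, at -1.28 and -5.60, the last of these against libraries with 12 and 0 counts.

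For 11 amino acids both a cytoplasmic and a mitochondrial gene were in the files, and the ratio of the pair within a library does not depend on how libraries are scaled. In IP, 6 pairs had a lower mitochondrial share than in Input without overlap (Arg, Asn, Ile, Met, Tyr and Val), 1 had a higher share (Asp) and 4 overlapped. Of all single genes tested, 66.7% did not overlap between IP and Input, and no such share was computed for ratios of gene pairs. The count by itself is therefore not a trait of these pairs. For valine, the cytoplasmic message was 15.0-fold more abundant per length than the mitochondrial one in IP, 14.9-fold in IgG and 4.57-fold in Input. For tyrosine the excess was 14.1-fold in IP, 14.6-fold in IgG and 4.44-fold in Input. For isoleucine it was 16.7-fold in IP, 17.0-fold in IgG and 9.34-fold in Input. The IgG libraries of the isoleucine pair spread widely and overlapped Input, with log2 ratios of mitochondrial over cytoplasmic gene of -2.62, -5.06 and -4.57, against -3.30, -3.19 and -3.17. Aspartate ran the other way: AspRS-m exceeded AspRS 43.7-fold per length in IP, 28.2-fold in IgG and 3.71-fold in Input. Its log2 ratios in the IgG libraries were 5.17, 5.66 and 3.62. These folds use all 2266 exonic bases of AspRS, of which 1448 also belong to another gene, so the excess per length is uncertain. The pulldown ratios also rest on few AspRS counts, 48 to 352 per library.

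The log2 ratio of mitochondrial over cytoplasmic gene in the tyrosine pair was -4.04, -3.48 and -3.92 in IP, -4.21, -4.34 and -3.06 in IgG, and -2.11, -2.27 and -2.08 in Input. In the valine pair it was -3.73, -3.72 and -4.26 in IP, -3.71, -5.21 and -2.78 in IgG, and -2.11, -2.28 and -2.18 in Input. Both pulldowns were below Input in every library of these pairs, and IP and IgG overlapped. Over the 11 pairs the median difference was -0.18 log2 units in IP minus Input and -0.44 in IgG minus Input. IP and IgG overlapped in 10 of 11 pairs, with alanine below at -0.42, while 33.1% of all single genes tested did not overlap. The exact two-sided permutation test over samples cannot go below p = 0.1 with 3 against 3 libraries, and over the 33 tests the smallest adjusted p was 0.236.

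**Figure D3:**
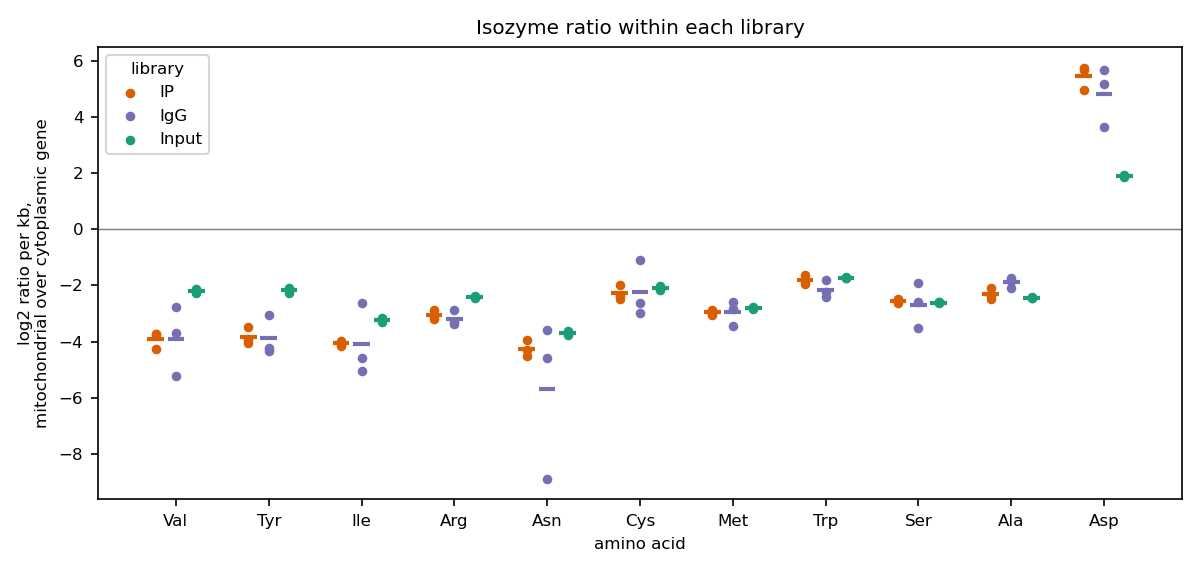
Log2 ratio of the mitochondrial over the cytoplasmic synthetase level per kb (y axis) for the 11 amino acids with both genes (x axis). Each point is 1 library (orange IP, purple IgG, green Input) and bars are means of 3; tyrosine and valine lie lower in both pulldowns than in Input, and aspartate is the pair above 0.

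Exon length varied together with the fold changes of the mitochondrial genes. Their exons summed to a median of 2650 bases, against 2455 for the cytoplasmic genes and 2093 for all genes tested. Across the 14 mitochondrial genes, Pearson's r between log2 exon length and log2 fold change was 0.62 in IP over Input, 0.22 in IP over IgG and 0.48 in IgG over Input. Across the 17 cytoplasmic genes it was 0.18, 0.56 and 0.02 in the same comparisons, and across all genes tested 0.14, 0.02 and 0.04. Spearman's rho across all genes tested was 0.16, 0.30 and -0.10, so that in IP over IgG the rank relation over all genes was closer than Pearson's r shows. It was 0.53, 0.18 and 0.37 across the mitochondrial genes and 0.23, 0.65 and 0.02 across the cytoplasmic genes. Genes of 1 library set are not independent replicates, and these values are descriptions. The short mitochondrial genes TyrRS-m (1540 bases), ProRS-m (1517) and GluRS-m (1700) were those with the lowest fold changes in IP over Input, and AspRS-m (4422) had the highest, while AsnRS-m, the shortest (1482), was at -0.25 and not called. The part of length in the result was not tested, beyond the corrected fits given under the processing.

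**Figure D4:**
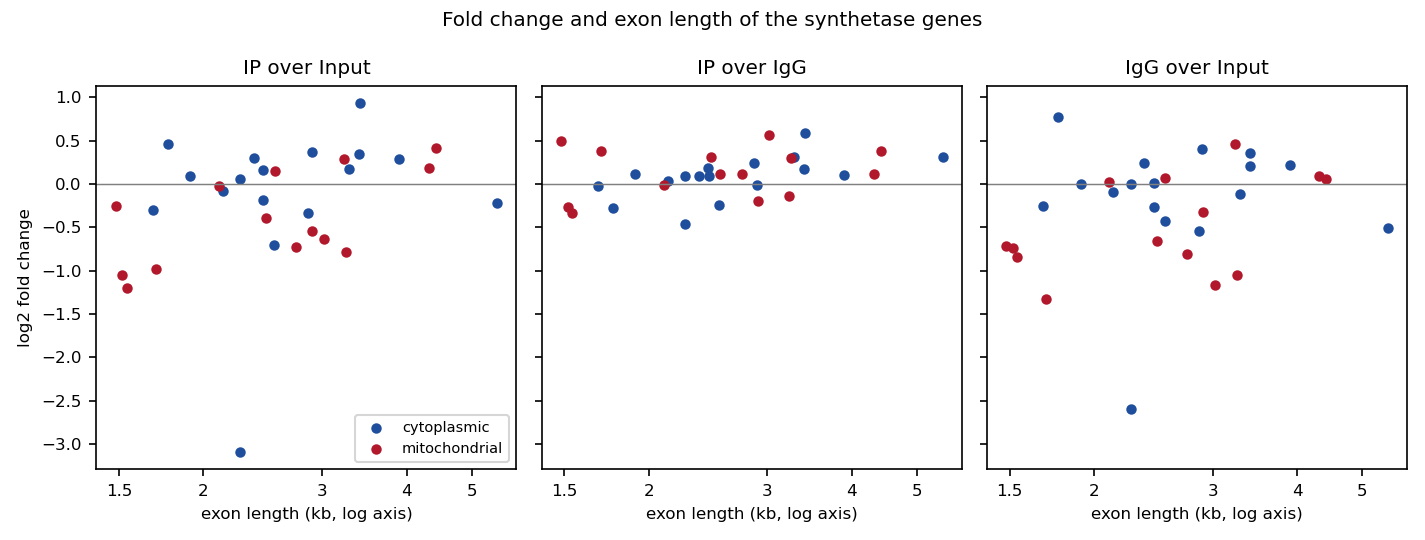
Log2 fold change (y axis) against exon length in kilobases (x axis, log) for the 17 cytoplasmic genes in blue and the 14 mitochondrial genes in red, in the 3 comparisons. In IP over Input the 3 mitochondrial genes with the lowest fold changes are among the shortest, and AspRS is the blue point near -3 in both comparisons with Input.

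TyrRS and GluRS-m are neighbours on chromosome 3L, both on the minus strand and 171 bases apart, and differed from Input in opposite directions in IP: TyrRS (16417349 to 16419302) at 0.46 and GluRS-m (16415292 to 16417177) at -0.98 on the log2 scale. In all, 16 members shared exonic bases with another gene, most of them on the opposite strand.

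Genes that work beside the synthetases were taken as a list of 13, of which 12 were in the files and 11 were tested. In IP over Input 1 was higher and 4 were lower, in IP over IgG 0 were higher and 1 was lower, and in IgG over Input 0 were higher and 1 was lower, where 59.2%, 7.97% and 26.9% of all genes tested were called in the same comparisons. The phenylalanyl enzyme is built of alpha and beta subunits, and the messages of the subunits differed in IP. The beta subunit, beta-PheRS, had 81.3, 79.0 and 94.4 CPM in IP, 103, 90.4 and 97.7 CPM in IgG, and 130, 121 and 120 CPM in Input, a log2 fold change of -0.55 ± 0.08 in IP over Input (edgeR, adjusted p = 0.000155) and -0.36 ± 0.10 in IgG over Input (adjusted p = 0.0343). The alpha subunit, alpha-PheRS, had 119, 114 and 126 CPM in IP, 111, 119 and 131 CPM in IgG, and 124, 117 and 119 CPM in Input, at -0.01 ± 0.06 in IP over Input. The libraries of alpha-PheRS overlapped between all groups, and those of beta-PheRS were below Input in both pulldowns.

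Of the scaffold proteins of the multisynthetase complex, AIMP2 was lower in IP than in Input at -0.37 ± 0.07 (edgeR, adjusted p = 0.000868), while AIMP1 was at 0.08 ± 0.07 and AIMP3 at -0.08 ± 0.10. The mitochondrial amidotransferase GatCAB makes glutaminyl-tRNA in mitochondria, where no GlnRS-m is needed. GatB was higher in IP than in Input at 0.35 ± 0.08 (edgeR, adjusted p = 0.0053), GatA was lower at -0.41 ± 0.11 (edgeR, adjusted p = 0.00722), and GatC had 0 counts in every library. Exon overlap with other genes was not examined for GatC, so its 0 counts do not show that the gene was silent. Slimp, a mitochondrial protein related to seryl synthetase, was at 0.27 ± 0.11 and was not called.

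Of the carriers that bring charged tRNA to the ribosome, the mitochondrial factor mEFTu2 was the list's call in IP over IgG. It had 16.9, 19.9 and 15.1 CPM in IP, 34.5, 58.3 and 31.5 CPM in IgG, and 37.3, 34.0 and 33.5 CPM in Input. Every IP library was below every other library. Its log2 fold change was -1.02 ± 0.12 in IP over Input (edgeR, adjusted p = 4.13e-05) and -1.23 ± 0.29 in IP over IgG (edgeR, adjusted p = 0.039). The related mEFTu1 had 211, 199 and 207 CPM in IP, 259, 217 and 214 CPM in IgG, and 216, 210 and 202 CPM in Input, at -0.03 ± 0.05 in IP over Input. The cytoplasmic factor eEF1alpha2 stayed at or below 5.81 CPM and was not called.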

How the data were processed

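For each of 9 libraries of poly(A) RNA, made with a directional kit, the authors deposited a table of raw, unnormalized counts for 17024 FlyBase IDs. The submitters' processing notes name HISAT2 2.1.0, featureCounts 1.4.6 and the dm6 build; the counting settings, strand setting and annotation are not given in the sources used here. Ensembl's BDGP6 annotation named 16647 IDs and left 377 unnamed, and coordinates are its 1-based positions. LeuRS, PheRS-m, eEF1alpha1 and the muscle marker wupA, whose current IDs were not matched, were not analysed here. Windows came from the RefSeq Release 6 genome, where 61 of 61 start codons of the members read ATG at the annotation's positions.

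Pairs of groups were compared with edgeR 4.0.16 in R 4.3.3 on the deposited counts of 6 libraries, with TMM factors and robust two-sided quasi-likelihood tests. Genes needed a count of about 10 or more in a smallest group of 3 libraries, which left 8789 genes, and 8784 in IP over IgG, where 5 had no counts. p was Benjamini-Hochberg adjusted over all genes tested, and a gene was called under 0.05. CPM is scaled by TMM, and SEs were derived from the quasi-likelihood F statistic. The fits were also run on simulated counts, drawn with the spread estimated from these same libraries. Such counts hold no pairing and no single uneven library, so that run cannot show how the fits handle either. A count of 3 corresponds to 0.0636 to 0.112 CPM across libraries, a limit that covers counting error only, because PCR copies are not independent molecules.

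Members and lists were chosen with earlier results of these data known. Values per library were given, by a fixed rule, for the 3 highest and 3 lowest called members per class and comparison, for both enzymes of an amino acid called in opposite directions, and for the 2 most and 2 least abundant in Input. LeuRS-m, AlaRS and AspRS-m in IP over IgG, and the neighbours TyrRS and GluRS-m, were named after their values were seen.

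Titles give the groups the same replicate numbers. Deviations from the group means correlated, for same-numbered IP and Input libraries, at 0.273, 0.289 and 0.387, so these libraries pair. Differently numbered IP and Input libraries correlated at -0.231 to -0.0158. For IP and IgG the same numbers gave 0.071, 0.0364 and 0.193, and different numbers -0.154 to 0.0882, which overlap and do not show a pairing. For IgG and Input the same numbers gave 0.0935, 0.0904 and 0.187, each above every value for different numbers (-0.123 to 0.0332). These correlations were weak, and whether IgG and Input libraries pair was not settled. The main fit of IP over Input, which gave the values above, did not use the pairing, and the replicate block was run as an alternative. Alternatives were DESeq2 1.42.0, DESeq2 size factors, library totals, 2 other filters, the replicate block, all 9 libraries in one fit, a loess correction for exon length (span 0.3) alone and with the block, isozyme pairs only, removal of FBgn000003, and each library left out. A centred length correction was added after seeing the data. Single genes were tallied across alternatives only if given per library by the fixed rule or tested among the genes beside the synthetases. Members outside the tally changed sign uncalled in IP over Input too. With the loess length correction, ArgRS went from -0.08 to 0.06 and CysRS-m from -0.02 to 0.11.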

Additional observations from a re-analysis of the deposited data

How the results depend on the processing

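Against a count of 10 mitochondrial and 12 cytoplasmic calls in IP over Input, the fit of all 9 libraries called 4 mitochondrial and 8 cytoplasmic genes, and the isozyme pairs alone held 7 cytoplasmic calls and a mitochondrial median of -0.25. For these the smaller number of genes or the shared spread is part of the alternative; elsewhere the cause was not tested.

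In IP over IgG, where edgeR called 0, library totals called 2 cytoplasmic and 2 mitochondrial genes, all 9 libraries in one fit 2 and 1, the replicate block 2 and 1, and DESeq2 2 cytoplasmic genes. The cytoplasmic median of 0.09 was 0.06 with DESeq2 or its size factors and 0.29 with library totals, which moved the median of all genes to 0.22. The planned exon length correction moved that median to -0.34, gave medians of -0.25 and -0.28 in the cytoplasmic and mitochondrial classes and called 3 cytoplasmic genes, all lower; with the block it gave 4, a cytoplasmic median of -0.24 beside -0.23 over all genes, and IleRS reversed to -0.35.

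In IgG over Input, library totals gave a cytoplasmic median of -0.14, equal to that of all genes. Mitochondrial calls numbered 4 with all 9 libraries, 2 with the block, and 0 among isozyme pairs, where cytoplasmic calls numbered 2. The length correction moved the median of all genes to 0.37 (0.20 with the block), gave cytoplasmic medians of 0.41 and 0.40 with the block, 9 cytoplasmic and 3 mitochondrial calls in each, GlyRS at 0.01 in each, beta-PheRS at 0.05 and 0.04 with the block, and alpha-PheRS at 0.41. Because of these shifts, a correction centred to a median of 0 over genes was added after seeing the data. No sign change under it involved a call among the genes tallied below. Uncalled values that changed sign in IP over IgG included IleRS (-0.02), MetRS-m (-0.03) and CysRS-m (0.03). With the block they included IleRS (-0.02), ProRS-m (1.36), IleRS-m (0.08), CysRS-m (0.18) and TrpRS (0.02), and eEF1alpha2 in both comparisons with IgG. In IP over Input the uncalled CysRS-m changed sign (0.02). There the centred correction ended the calls of IleRS (0.17, edgeR adjusted p = 0.134) and GlnRS (-0.18, edgeR adjusted p = 0.0673). It called 0 synthetase genes in IP over IgG alone, and with the block 1 cytoplasmic gene (ValRS) there and 2 mitochondrial genes in IgG over Input.

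With each library left out, cytoplasmic calls ran from 10 to 12 and mitochondrial calls from 10 to 12 in IP over Input, from 0 to 0 and from 0 to 1 in IP over IgG, and from 1 to 8 and from 1 to 5 in IgG over Input. Cytoplasmic and mitochondrial medians ran from 0.07 to 0.13 and -0.52 to -0.41, from 0.02 to 0.16 and -0.07 to 0.29, and from -0.16 to 0.03 and -0.70 to -0.33 in the same comparisons.

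Over all genes, calls in IP over Input numbered 5206, and 2778 with all 9 libraries. In IP over IgG they numbered 700 (59.9% higher), against 1193 with library totals (86.2% higher), 2014 with all 9 libraries, 1264 with the block, 1376 with DESeq2, 1249 with the length correction (4.0% higher), 1617 with that and the block (3.83% higher), 212 with the centred one (25.0% higher), 804 with that and the block (49.3% higher), and 295 to 331 without an IP library. In IgG over Input they numbered 2364 (38.4% higher), against 446 to 490 without an Input library, and 72.7% and, with the block, 82.3% were higher under the length correction and 25.8% with library totals. The block lost no synthetase call in IP over Input. Of the values of tallied genes, 1307 kept direction and side of the threshold, 65 gained a call and 35 lost one. With a call on one side, 6 changed sign. Uncalled, 96 changed sign: 49 of 19 genes in IP over IgG, 25 of 8 in IgG over Input and 22 of 4 in IP over Input. Those 4 genes include no synthetase named by the symbol rule. In IP over IgG, ProRS-m was at 1.35 with the block and 1.97 without IgG replicate 1, IleRS-m at 0.73 without IgG replicate 1, and AspRS at 0.31 and TyrRS-m at 0.15 without IgG replicate 3.

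By the median SE, the spread of the IgG libraries limits the mitochondrial class most: GluRS-m, ProRS-m and AsnRS-m each had an IgG library near 0. Their IP over IgG values carry no call in either direction, like those of all 31 genes in the main fit. The cytoplasmic AspRS, also at a low level, had an SE of 0.98 there, beside 0.95 for AsnRS-m. The part of level in this spread was not tested.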
